A study of Mus musculus with 12 samples.

Results

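Npas3 is a gene of 823.5 kb on the plus strand of mouse chromosome 12, and the array used here tiled the whole of it. Its H3K27me3 profile was described from the 9836 probes, of 48316 in all, whose positions fell in the tiled region chr12:54345487-55182412 (mm9), 836.9 kb long. The members were taken by position alone, although this gene was picked for description with earlier results of these data known. The region held 1 annotated gene, Npas3 (chr12:54349664-55173162 in GENCODE), with 4177 bp tiled before the gene and 9250 bp after it. All positions are given in kb from the annotated start at 54349664, which both annotated transcripts share. The probes had 60 bases and a median step of 60 bp, and the largest step was 2456 bp.

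The study compared H3K27me3 around Shh in mouse embryonic stem cells (ESCs) carrying artificial transcription activators and in neural progenitor cells (NPCs). Nuclei of 46c cells, an ESC line with a fluorescent reporter of neural differentiation, were digested with micrococcal nuclease, and native ChIP with an antibody to H3K27me3 was followed by hybridisation of ChIP and input DNA to the same arrays. There were 6 conditions: ESCs with eGFP, NPCs made from 46c ESCs by N2B27 differentiation, and ESCs transfected with a TALE-Vp64 protein directed to the Shh promoter (tShh-Vp64), to the Shh enhancer SBE6 (tSBE6-Vp64), to SBE2 (tSBE2-Vp64) or to both enhancers (tSBE(6+2)-Vp64). A TALE-Vp64 protein joins a designed DNA-binding domain to a viral activation domain. All cells were of 1 line, the labels give neither the day of differentiation of the NPCs nor the time after transfection, and none of the activators was directed to Npas3. Each condition had 2 arrays, R1 and R2, which were averaged to 1 sample, because the labels of 3 conditions give both the same biological replicate. A p-value therefore measures the spread between the ESC populations, and the lone NPC sample is assumed to vary as they do.

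H3K27me3 is deposited by polycomb repressive complex 2 and marks genes that are kept silent but can be activated later. In ESCs it typically covers the CpG-rich promoters of developmental regulators, often with a broad shoulder into the gene. Npas3 encodes a transcription factor of the bHLH-PAS family that is used in the developing and adult brain, and large neural genes of this kind consist almost wholly of introns. The annotated gene has 12 exons, and the last of them, chr12:55168725-55173162, holds the end of the coding sequence and a long 3′ untranslated region.

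Values are log2 ratios of the Cy5 to the Cy3 signal, each array centred on its median, so that 0 is the median probe of the array. According to the labels and the header of the deposited ratios, ChIP DNA carried Cy3 and input Cy5, yet the deposited values themselves ran as Cy5 over Cy3 (correlations of 0.849 to 0.916 per array). Their direction was adopted. Should the stated dyes be right, all signs in the text turn round. This direction was taken as the likely one because it put the promoters (within 5 kb of the start) of the broadly expressed genes Actb and Gapdh at -0.47 and -0.68 in the ESC populations and that of Six3, a homeobox gene of the developing forebrain, at 1.73. As a check of the cell labels, the promoter of the pluripotency gene Pou5f1 was at -0.54 ± 0.08 (SD, n = 5) in the ESC populations and 1.43 in NPCs, and that of the neural progenitor gene Nes at 0.73 ± 0.14 and -0.08. Other genes of neural progenitors ran against Nes, with higher ratios in NPCs: Sox2 had an ESC mean of 0.08 and 1.34 in NPCs, Pax6 1.77 and 2.88, Olig2 1.61 and 2.92 and Six3 1.73 and 3.28. The neural genes therefore did not change one way, and Sox2, Pax6 and Olig2 are named here after their values were seen.

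Signals over much of Npas3 were dim. Of its probes, 61% to 84.6% were well above background in Cy5 and 45.6% to 91.1% in Cy3, depending on the array, and the correlation between arrays R1 and R2 over single probes was 0.56 to 0.65. For this reason probes were averaged over tiles of 5 kb, 168 of which lay in the region. Spots with an outlier mark were left out, 13 to 476 of the Npas3 probes per array, with 476 on R1 of tSBE2-Vp64. NPCs and tSBE(6+2)-Vp64 ESCs were on 1 slide and the 4 other conditions on another, so NPCs and tSBE(6+2)-Vp64 ESCs can be compared within a slide.

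The stretches of DNA on which the results turned are shown first, with CG dinucleotides in capitals, since CpG-rich DNA is where polycomb complexes are typically recruited. The promoter is the 250 bases before the RefSeq start of Npas3, taken from the RefSeq promoter table (GRCm38.p6) and matched to mm9 at chr12:54349169-54349418, plus strand; the RefSeq start lies 245 bp before the annotated one. It held 15 CG dinucleotides, and 27.3% of the 32851 mouse promoters of that table held as many or more over the same length.
Npas3 promoter: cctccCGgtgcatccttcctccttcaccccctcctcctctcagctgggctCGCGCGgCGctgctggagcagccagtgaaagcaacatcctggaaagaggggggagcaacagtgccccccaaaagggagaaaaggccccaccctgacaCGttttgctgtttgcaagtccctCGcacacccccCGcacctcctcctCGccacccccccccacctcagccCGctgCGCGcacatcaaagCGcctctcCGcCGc

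The 4 sequences that follow are single probes, 1 from each of the stretches described further on, each the probe with the highest value of its tile in the ESC mean (intron 1, intron 6) or in NPCs (intron 3, intron 11), outside untranslated sequence. As they were picked by value, their ratios are only a description. The probe in intron 1, chr12:54356419-54356478, had an ESC mean of 3.37 and an NPC value of 0.34. The probe in intron 6, chr12:55077511-55077570, had 2.23 and -0.25. The probe in intron 3, chr12:54609336-54609395, had -0.30 and 2.22, and the probe in intron 11, chr12:55167661-55167720, had 2.29 and 4.21. Only the last of them contained CG dinucleotides, 2 in number. These counts hold for the 60 bases of each probe alone and not for the DNA around it.
intron 1 probe: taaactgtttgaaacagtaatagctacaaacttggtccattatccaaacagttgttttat
intron 3 probe: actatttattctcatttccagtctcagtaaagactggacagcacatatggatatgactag
intron 6 probe: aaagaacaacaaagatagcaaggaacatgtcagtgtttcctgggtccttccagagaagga
intron 11 probe: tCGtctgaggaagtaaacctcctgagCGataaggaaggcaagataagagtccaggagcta

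In all 5 ESC populations high H3K27me3 ratios over Npas3 were concentrated in a few places. The ratio was high at the 5′ end, moderately high at a site in intron 6 and high again at the 3′ end, while most tiles of the long introns between them lay slightly under the array median. Of the 168 tiles, 4 had an ESC mean of 1 or more and 7 a mean of 0.5 or more, whereas 125 were below 0. The median tile ran from -0.20 with tSBE2-Vp64 to -0.07 with tShh-Vp64 and was -0.33 in NPCs.

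**Figure D1:**
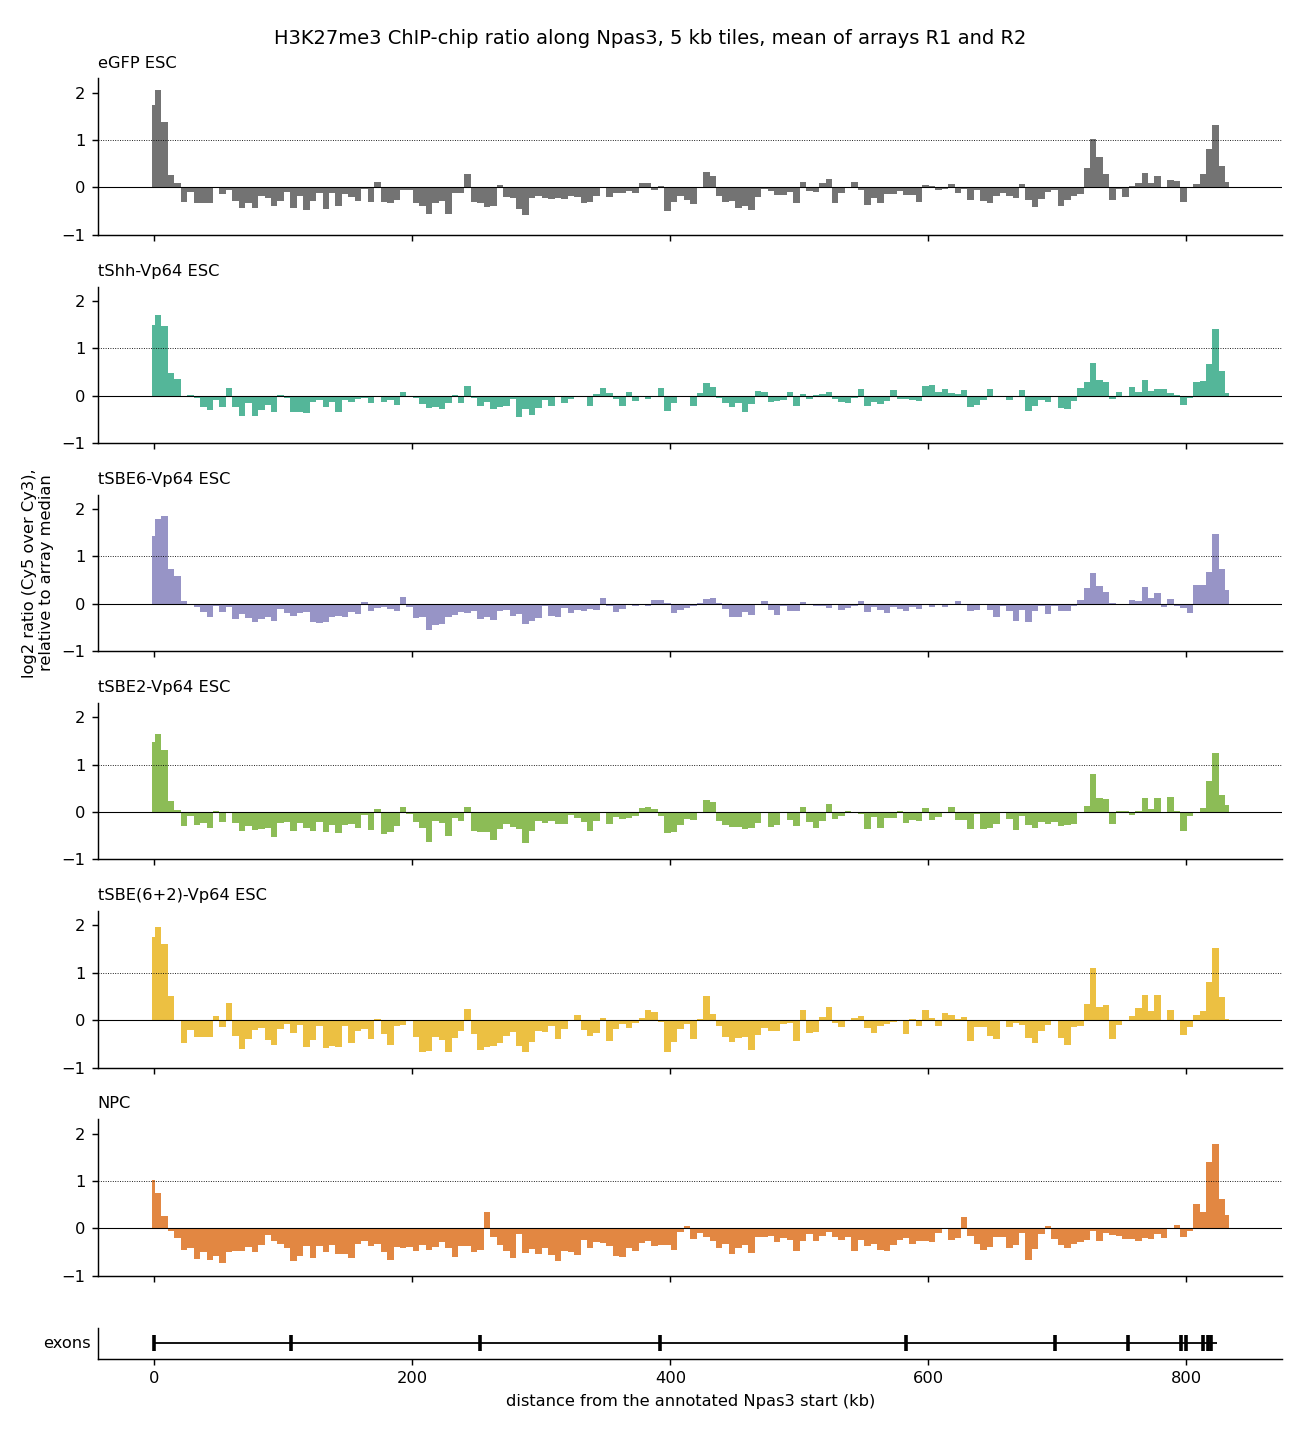
Log2 ratio relative to the array median (vertical axis) in 5 kb tiles along Npas3 (horizontal axis, kb from the annotated start), 1 panel per condition, mean of arrays R1 and R2; the dotted line is a log2 ratio of 1 and the lowest panel shows the 12 exons. The 5 ESC panels share peaks at the 5′ end, at 725.3 kb and at the 3′ end, whereas in NPCs the highest tile is at the 3′ end and that at 725.3 kb lies at -0.06.

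Over the whole region the mean ratio was -0.09 with eGFP (-0.10 on R1, -0.09 on R2), -0.02 with tShh-Vp64 (-0.05, 0.01), -0.05 with tSBE6-Vp64 (-0.04, -0.06), -0.12 with tSBE2-Vp64 (-0.13, -0.12), -0.11 with tSBE(6+2)-Vp64 (-0.15, -0.06) and -0.28 in NPCs (-0.28, -0.27). Both NPC arrays were below all 10 ESC arrays. The NPC value was 0.20 below the ESC mean of -0.08 ± 0.04 (SD, n = 5) and 0.17 below tSBE(6+2)-Vp64 on the same slide. With 1 NPC sample against 5, the smallest p an exact permutation test can give is 0.167, so no test was made of a single value. In bulk chromatin, fewer cells with the mark and less of the mark per cell cannot be told apart.

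In bins of 100 kb from the start, NPCs were below the ESC mean in each of the 8 bins up to 800 kb and above it in the last one. The difference was largest in the first bin, from 0 to 100 kb (ESC mean -0.01, NPC -0.34), and from 300 to 400 kb (-0.11 and -0.42). It was smallest from 200 to 300 kb (-0.31 and -0.38), where NPCs were 0.04 above tSBE(6+2)-Vp64. In the last bin, which ends with the tiled region, the ESC mean was 0.44 ± 0.07 (SD, n = 5) and NPCs had 0.69, above every ESC population.

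**Figure D2:**
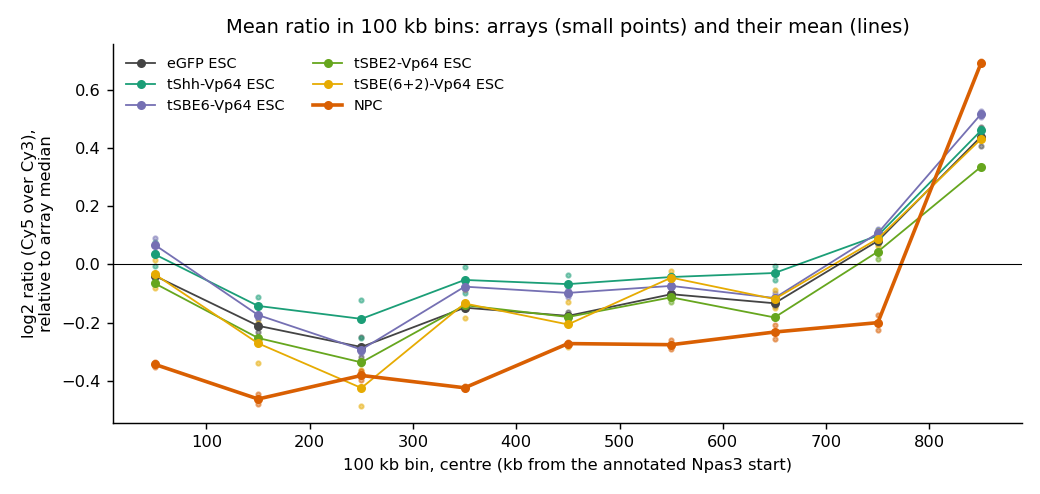
Mean log2 ratio relative to the array median (vertical axis) in bins of 100 kb from the annotated start (horizontal axis, bin centre; the last bin ends with the tiled region), lines for the mean of R1 and R2 and small points for the arrays. The NPC line lies below the ESC mean up to 800 kb and above all ESC lines in the last bin, 0.69 against 0.34 to 0.52.

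The 5′ end carried the strongest ESC signal of the gene and the largest loss in NPCs. Within 5 kb of the start, 98 probes gave 1.93 in eGFP ESCs (2.09 on R1, 1.77 on R2), 1.60 with tShh-Vp64 (1.59, 1.60), 1.60 for tSBE6-Vp64 (1.63, 1.57), 1.58 with tSBE2-Vp64 (1.58, 1.59), 1.88 with tSBE(6+2)-Vp64 (1.75, 2.00) and 0.96 in NPCs (0.96, 0.95). No ESC array came near the NPC arrays, and the ratio in NPCs was still well above the array median. The NPC value was 0.76 below the ESC mean of 1.72 ± 0.17 (SD, n = 5) and 0.92 below tSBE(6+2)-Vp64.

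The loss was uneven along the 5′ end. In the tile before and over exon 1 (from -4.7 kb), the ESC mean was 1.58 ± 0.15 (SD, n = 5) and NPCs had 1.02. In the next tile, from 0.3 to 5.3 kb, these values were 1.83 ± 0.18 and 0.76. In the tile from 5.3 to 10.3 kb, in intron 1, the arrays gave 1.44 and 1.32 in eGFP ESCs, 1.42 and 1.53 with tShh-Vp64, 1.87 and 1.82 for tSBE6-Vp64, 1.24 and 1.38 with tSBE2-Vp64, 1.44 and 1.76 with tSBE(6+2)-Vp64, and 0.11 and 0.39 in NPCs. The groups were far apart, and this was the largest difference of the region in either direction. By limma with Benjamini-Hochberg adjustment over all 964 tiles of the array, the 3 tiles differed by -0.56 ± 0.15 (SE), -1.07 ± 0.16 and -1.27 ± 0.18, with adjusted p of 0.0127, 0.000353 and 0.000202. The tile that followed, from 10.3 to 15.3 kb, was at 0.44 ± 0.20 (SD, n = 5) in the ESC populations and -0.05 in NPCs (limma, difference -0.49 ± 0.17, adjusted p = 0.0463), a call lost under 9 of 21 alternatives.

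In windows of 1 kb the ESC signal had separate summits, with means of 2.32 at -3.2 kb, 2.84 at 1.8 kb and 2.29 at 6.8 kb. NPCs kept a ratio of 1.96 at the first of these, had 1.45 at the second and had 0.56 at the third. The windows over exon 1 and at 3.8 kb were lower than their neighbours in every ESC population, with means of 0.89 and 0.11. They overlap the CpG-rich stretches described below and hold only 7 and 5 probes.

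**Figure D3:**
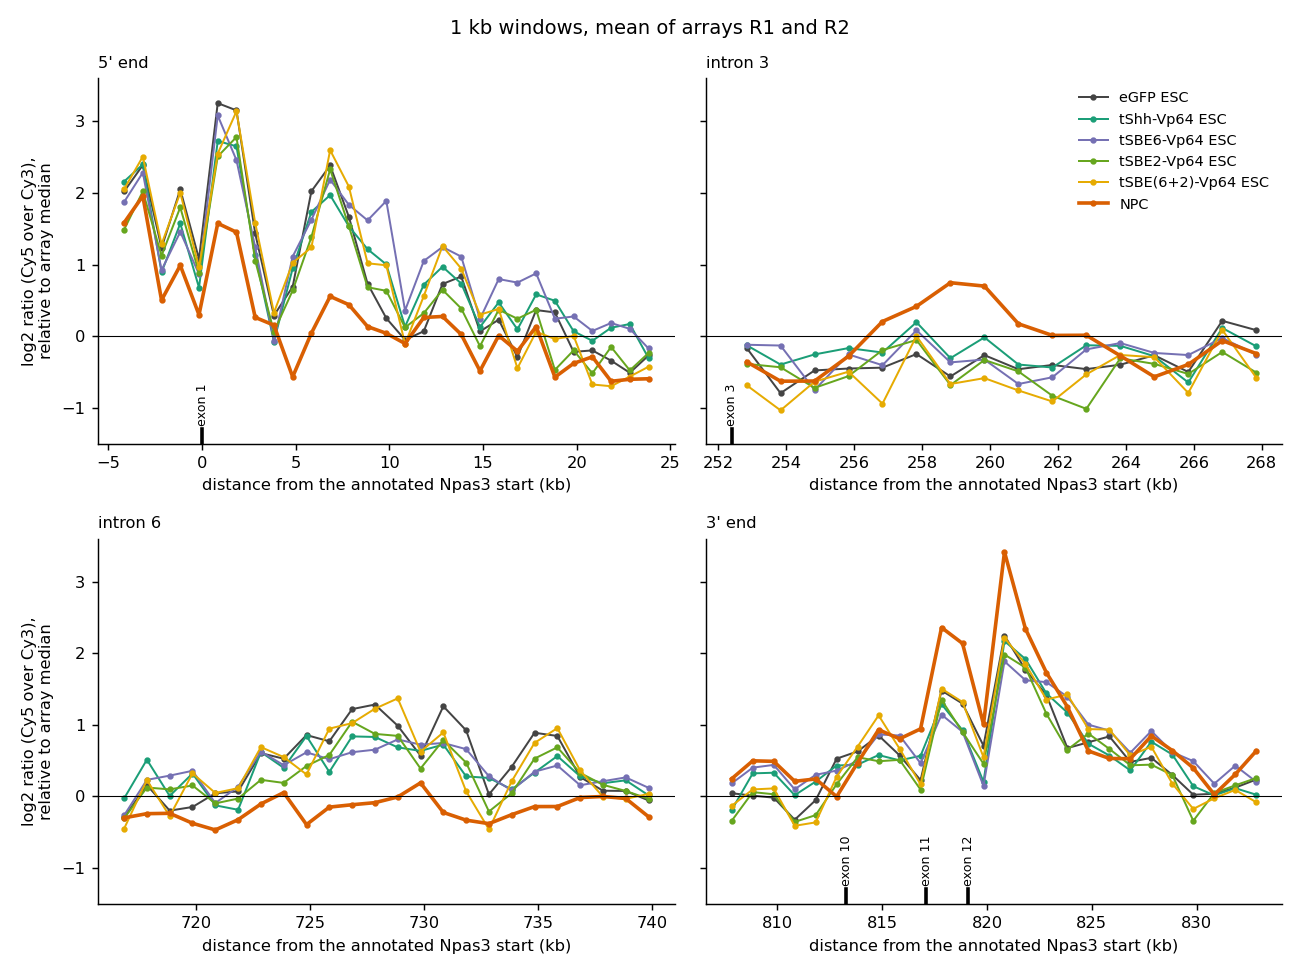
Log2 ratio relative to the array median (vertical axes) in 1 kb windows (horizontal axes, kb from the annotated start) at the 5′ end, in intron 3, in intron 6 and at the 3′ end, 1 line per condition, mean of R1 and R2. NPCs lie below all ESC populations between 5 and 9 kb and throughout 722 to 732 kb, and above them near 259 kb and at 818 to 821 kb.

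A block was a run of 2 kb windows with a log2 ratio of at least 1 on both R1 and R2. The 5′ block began at the edge of the tiled region in all 6 conditions, so its true start is not known. It reached to 8.3 kb in eGFP, tSBE2-Vp64 and tSBE(6+2)-Vp64 ESCs, to 10.3 kb with tShh-Vp64 and to 14.3 kb for tSBE6-Vp64, but only to 2.3 kb in NPCs. A second block of 2 kb followed in tSBE(6+2)-Vp64 ESCs, from 12.3 to 14.3 kb. Over the stretch that was a block in NPCs, the NPC arrays had 1.18 (R1) and 1.15 (R2), and the ESC populations had 1.82 to 2.17. The total length of blocks over the region came to 16 to 24 kb among the ESC populations against 16 kb in NPCs, with a shorter 5′ block in NPCs and a longer one at the 3′ end. With a threshold of 0.5 these totals were 38 to 48 kb and 26 kb. The NPC length depended on the processing: with the deposited ratios it was 2 kb at each end, against 10 to 14 kb (5′) and 2 to 4 kb (3′) in the ESC populations, and with probes well above background in Cy3 no 5′ block was left in NPCs, against 4 to 6 kb. The 5′ blocks of NPCs were shorter than those of every ESC population under all 13 alternatives except a threshold of 1.5, where NPCs and tSBE2-Vp64 both had 4 kb.

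In intron 6, between exon 6 at 698.5 kb and exon 7 at 754.8 kb, a second site was marked in the ESC populations. In the tile from 725.3 to 730.3 kb (chr12:55075000-55079999) the arrays gave 1.13 and 0.91 in eGFP ESCs, 0.68 and 0.68 with tShh-Vp64, 0.64 and 0.67 for tSBE6-Vp64, 0.77 and 0.82 with tSBE2-Vp64, 1.19 and 1.00 with tSBE(6+2)-Vp64, and -0.11 and -0.01 in NPCs. All 10 ESC arrays were above 0.6 and both NPC arrays were at the array median or slightly below it. The difference was -0.91 ± 0.17 (SE; limma, adjusted p = 0.0016), and -1.15 against tSBE(6+2)-Vp64 alone. The 3 tiles around it, at 720.3, 730.3 and 735.3 kb, were lower in NPCs as well, with differences of -0.54, -0.65 and -0.38. In eGFP ESCs a block of 6.0 kb lay here, from 726.3 to 732.3 kb, with a mean of 1.09 over 64 probes, where NPCs had -0.11. Only 2 of its windows reached the threshold, and the gap between them was bridged. Its length depended on the processing. Blocks of eGFP ESCs between the ends of the gene came to 2 kb with normexp background correction or the Cy5 filter. They came to 0 kb with the deposited ratios, the Cy3 filter, 5 kb tiles or a threshold of 1.5. Of the other ESC populations, tSBE(6+2)-Vp64 had a block of 2.0 kb here and the other 3 had none. No exon of Npas3 and no other annotated gene lay in it.

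The 3′ end behaved in the opposite way. In the tile from 815.3 to 820.3 kb, which holds exon 11 and the start of exon 12, the arrays gave 0.89 and 0.74 in eGFP ESCs, 0.66 and 0.67 with tShh-Vp64, 0.70 and 0.65 for tSBE6-Vp64, 0.65 and 0.64 with tSBE2-Vp64, 0.77 and 0.85 with tSBE(6+2)-Vp64, and 1.41 and 1.40 in NPCs. Every NPC array exceeded every ESC array. The difference was 0.68 ± 0.12 (SE; limma, adjusted p = 0.000977), and 0.60 against tSBE(6+2)-Vp64 alone. The adjoining tile, from 820.3 to 825.3 kb, which is mostly the remainder of exon 12, had 1.39 ± 0.11 (SD, n = 5) in the ESC populations and 1.78 in NPCs (limma, difference 0.39 ± 0.13, adjusted p = 0.0375). This last call was lost under 11 of 21 alternatives, with slide as a block among them (0.26, adjusted p = 0.215 by limma), and with loess the difference was -0.03.

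This end of the gene thus had a high ratio in ESCs too. In windows of 1 kb the NPC summit was at 820.8 kb, with 3.86 on R1 and 2.97 on R2, where the ESC mean was 2.10 ± 0.16 (SD, n = 5). A shoulder over intron 11 and the start of exon 12, at 817.8 and 818.8 kb, had 2.36 and 2.14 in NPCs and 1.35 and 1.07 in the ESC populations. Of the 9 windows beyond the end of the gene, NPCs were below the range of the ESC populations in the first 2, within it in 5 and above it in 2, at 828.8 kb (0.64 against at most 0.62) and 832.8 kb (0.63 against -0.08 to 0.26). The NPC block here was 8.0 kb long, from 816.3 to 824.3 kb, against 2.0 or 4.0 kb in the ESC populations. It was not longer than in every ESC population with the deposited ratios (2 kb against 2 to 4 kb) or at a threshold of 0.5 (14 kb against 10 to 14 kb).

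A gain without a counterpart in ESCs was seen in intron 3, shortly after exon 3 (252.4 kb). In the tile from 255.3 to 260.3 kb (chr12:54605000-54609999) the arrays gave -0.46 and -0.36 in eGFP ESCs, -0.14 and -0.13 with tShh-Vp64, -0.26 and -0.31 for tSBE6-Vp64, -0.40 and -0.44 with tSBE2-Vp64, -0.61 and -0.54 with tSBE(6+2)-Vp64, and 0.39 and 0.31 in NPCs. The difference was 0.71 ± 0.15 (SE; limma, adjusted p = 0.00388), and 0.92 against tSBE(6+2)-Vp64. In windows of 1 kb NPCs reached 0.75 at 258.8 kb, far below the values at the 3′ end. With only those probes that were well above background on every array, the difference fell to 0.25 (Cy3) or 0.23 (Cy5), with adjusted p of 0.114 and 0.158 by limma, so the call depended on dim probes.

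**Figure D4:**
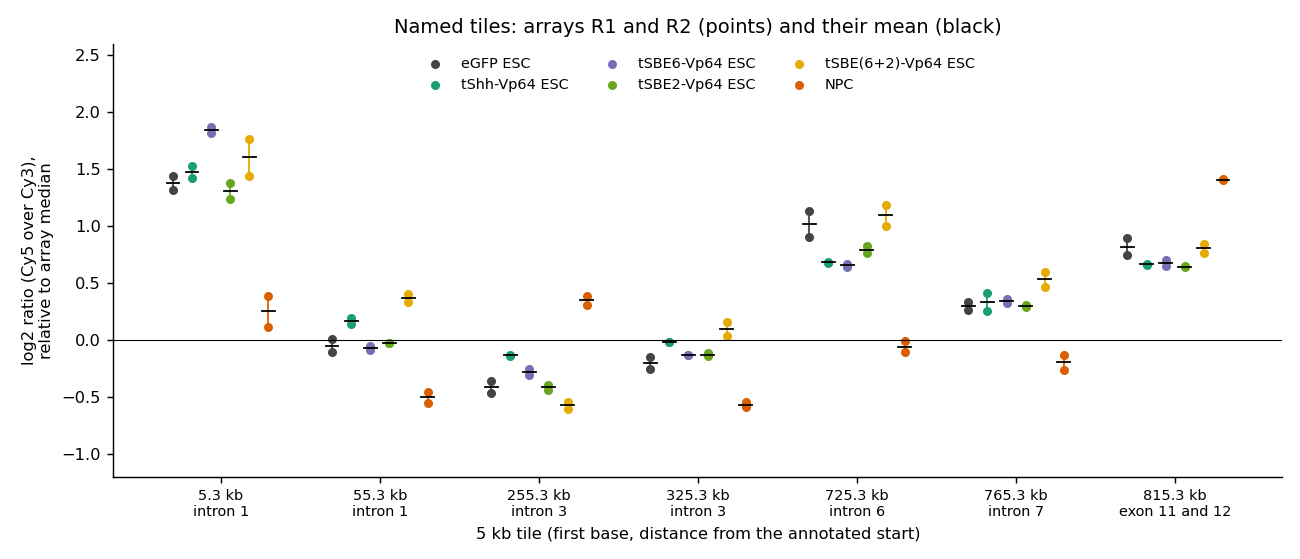
Log2 ratio relative to the array median (vertical axis) in the 7 named 5 kb tiles (horizontal axis), points for arrays R1 and R2 and black bars for their mean, coloured by condition. Both NPC points lie outside the range of all 10 ESC points in every tile shown, above it at 255.3 and 815.3 kb and below it in the others. The tiles were picked by the size of this difference, so the separation is only a description.

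Across the gene, 48 of the 168 tiles were lower in NPCs than in the ESC populations and 3 were higher (limma, adjusted p under 0.05). Of all 964 tiles of the array, 11.5% were lower and 26.8% higher, so Npas3 held more lower tiles (28.6%) and fewer higher tiles (1.79%) than the array as a whole. The median difference was -0.19 over the Npas3 tiles and 0.05 over all tiles. All 48 lower tiles had the same sign on R1 and R2 and lay below every ESC population, tSBE(6+2)-Vp64 on the same slide included. As the tiles were called from these same values, this is only a description. Of all 168 tiles, NPCs were below every ESC population in 103. The differences of the 48 lower tiles ran from -1.27 to -0.31, with a median of -0.41.

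**Figure D5:**
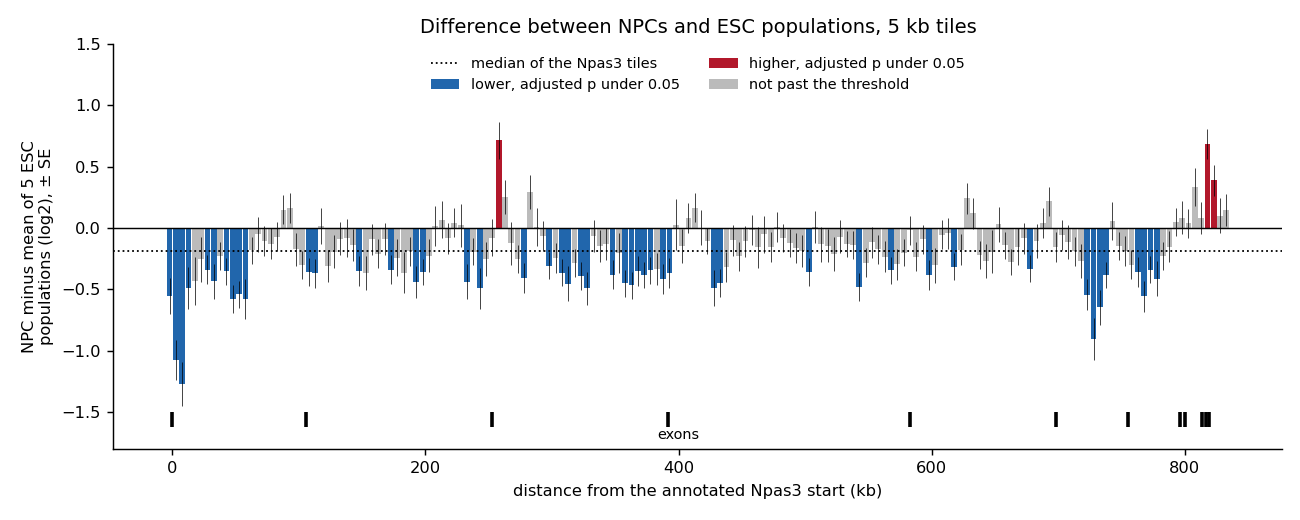
NPCs minus the mean of the 5 ESC populations (vertical axis, log2, error bars SE from limma) in 5 kb tiles along Npas3 (horizontal axis, kb from the annotated start), 48 lower tiles in blue, 3 higher tiles in red; the dotted line is the median of the Npas3 tiles, -0.19, and the ticks are exons. The deepest bars lie at the 5′ end and at 725.3 kb, and many shallow ones in the introns.

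Most of these tiles were no peaks in ESCs, like most tiles of the region. Of the 125 tiles with an ESC mean below 0, 22 were lower in NPCs. The same held for 22 of the 36 tiles between 0 and 0.5 and for 4 of the 7 above 0.5. These 4 were the 3 tiles of the 5′ end and that at 725.3 kb. Lower calls were thus a larger share of the tiles with an ESC mean above 0. The 48 lower tiles formed 25 runs of adjoining tiles, the longest of 5 tiles from 355.3 to 380.3 kb. Further named ones were the tile at 55.3 kb in intron 1 (ESC mean 0.08 ± 0.19, NPC -0.50, difference -0.58 ± 0.17, limma adjusted p = 0.0188), that at 325.3 kb in intron 3 (-0.08 ± 0.12, -0.57, -0.49 ± 0.13, 0.0146) and that at 765.3 kb in intron 7 (0.36 ± 0.10, -0.20, -0.56 ± 0.12, 0.00501). In all 3 tiles the NPC value was under the array median.

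The number of shallow calls rested on the centre of the arrays. Before centring, the median log2 ratio was -1.19 (R1) and -0.94 (R2) on the NPC arrays and -0.74 to -0.20 on the ESC arrays. When each array was centred on the median of the Npas3 probes themselves, an alternative chosen after the data had been seen, 6 tiles were lower and 11 higher in place of 48 and 3. The 6 lower tiles were those at 0.3, 5.3, 45.3, 50.3, 725.3 and 730.3 kb, and the 3 higher tiles of the original centring were among the 11. The loss at 5.3 and 725.3 kb and the gain at 815.3 kb passed the threshold under each of the 21 alternatives tried for single tiles. The slide also moved the count: with slide as a block, 31 tiles were lower, 30 of them among the 48.

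High ratios at exons were found at the ends of the gene. Of the 168 tiles, 11 overlapped an exon, with a mean of 0.25 ± 0.05 (SD, n = 5) in the ESC populations and 0.20 in NPCs, against -0.10 ± 0.05 and -0.31 over the other 157. The 8 tiles over exons 2 to 10 had -0.12 ± 0.07 in the ESC populations and -0.25 in NPCs. Within 500 bp of an exon, exons 2 to 9 had ESC means of -0.32 to 0.12 and exon 10 had 0.56, whereas exon 1 had 1.25, exon 11 had 0.53 and exon 12 had 1.25. NPC values at exons 11 and 12 were 1.36 and 1.99.

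CpG-rich DNA lay at both ends of the gene, but not every CpG-rich stretch had a high ratio. In mm9, 4 stretches met a criterion of at least 55% GC and an observed to expected CpG ratio of at least 0.65 in windows of 500 bp. The stretch over exon 1, chr12:54348675-54350174, had 102 CpGs, ESC values of 1.17 to 1.50 and 0.74 in NPCs. The stretch at the 3′ end, chr12:55168443-55170279, over the start of exon 12, had 134 CpGs, ESC values of 0.50 to 0.95 and 1.65 in NPCs. The stretch in intron 1, chr12:54353115-54354814, had the most CpGs, 164, but ESC values of only -0.12 to 0.14 and -0.12 in NPCs, over 6 probes. That in intron 4, chr12:54808033-54808937, had 51 CpGs, ESC values between -0.52 and -0.20 and an NPC value of -0.32. Across the 168 tiles the ESC mean had a Pearson correlation of 0.48 with the GC content of the probes and the NPC value of 0.37, as a description, since the tiles share the arrays and labelling depends on base composition.

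The shape of the profile was shared among the ESC populations. Over the 168 tiles the Pearson correlation between 2 ESC populations was 0.87 to 0.96 and that of NPCs with an ESC population 0.66 to 0.72. In the 136 tiles from 20 to 700 kb, which leave out both ends and the intron 6 site, these ranges were 0.56 to 0.84 and 0.24 to 0.33. The tiles share arrays, probes and base composition, so these are descriptions.

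No Npas3 tile differed between the 4 TALE-Vp64 populations and eGFP ESCs by limma at an adjusted p of 0.05. None of the 964 tiles did either (0.0% called), and the smallest adjusted p in Npas3 was 0.996. At an unadjusted p under 0.05, 2 Npas3 tiles passed, or 1.19%, against 1.24% of all tiles. They were the tile at 265.3 kb (-0.35 ± 0.15, SE) and that at 730.3 kb in intron 6 (-0.31 ± 0.12), both lower with the activators; they are named because they are so few. Differences over the 168 tiles ran from -0.35 to 0.26 with a median of 0.03, and a typical SE was 0.14. Even the largest of them did not pass after adjustment, so changes of this size could not be called with 1 eGFP sample. The comparison took the mean of the 4 constructs, so a change with a single construct would add to the spread. At the 5′ end, the tile from 0.3 to 5.3 kb was at 2.07 in eGFP ESCs and 1.64 to 1.97 in the TALE-Vp64 populations (-0.30 ± 0.15, unadjusted p = 0.0791 by limma).

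Compared with the 2 other tiled regions with the most probes, Npas3 stood at the level of Shh in ESCs and below it in NPCs. The mean over the 12390 probes of the Shh region was -0.09 ± 0.02 (SD, n = 5) in the ESC populations and 0.06 in NPCs, and over the 3546 probes of the Hoxd cluster 0.60 ± 0.04 and 0.90. Npas3 minus Shh ranged from -0.02 to 0.07 among ESC populations, and NPCs had -0.33. Such a contrast does not depend on how the arrays are centred, but it does depend on their scale. Over the tiles of the array NPC values had a slope of 1.24 on the ESC mean, and the contrast is given without rescaling. On the same slide, tSBE(6+2)-Vp64 had a slope of 1.20 on the mean of the other ESC populations, so a wider scale was not particular to NPCs. Npas3 minus Hoxd was -0.75 to -0.62 and -1.17. NPCs were outside the ESC range in both, but the exact permutation test allows no p under 0.167 here. Of the tiles of Shh 7.28% were lower and 22.6% higher in NPCs, of those of Hoxd 14.7% and 29.3%, against 28.6% and 1.79% in Npas3. No test of these shares was made, since neighbouring tiles are not independent.

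Among 71 promoters of 70 protein-coding genes, Npas3 included, with at least 40 probes within 5 kb of the start, the promoters whose level followed that of Npas3 most closely over the 6 conditions were those of Nes (Pearson r = 0.97), Sox9 (0.97), a transcription factor gene of neural stem cells and cartilage, and Hoxd4 (0.95), a homeobox gene of the hindbrain and trunk. All 3 were lower in NPCs than in the ESC populations, Nes at -0.08 against 0.73, Sox9 at 0.77 against 1.33 and Hoxd4 at 1.04 against 1.54. With 6 points that share arrays, 1 of them NPCs, this is a description. The promoters of Shh and Six3 ran the other way, with 2.20 and 3.28 in NPCs and 1.12 and 1.73 in the ESC populations.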

How the data were processed

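H3K27me3 ChIP and input DNA of 6 conditions were hybridised to 12 custom Agilent arrays. The authors scanned each wavelength separately. Per the file headers, Feature Extraction 11.5.1.1 gave the intensity of each spot; the sources used here do not say what was done to the processed signal after background subtraction. On the Cy3 scan of NPC array R2 the processed signal was nearly always the background-subtracted one (within 1% for 96.4% of probes), against at most 20.1% of probes on the other scans. A further table deposited by the authors holds normalized log2 ratios, 1 column per condition with R1 and R2 combined; its normalization is not given in the sources used here (limma is the tool listed). The paper's methods describe other arrays.

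From the deposited processed intensity of both wavelengths, log2 Cy5 over Cy3 was computed, outlier-marked spots were left out, and each array was centred on its median. Probes were averaged in tiles of 5000 bp (at least 5 probes on every array), and R1 and R2 were averaged. limma 3.58.1 (R 4.3.3; lmFit, eBayes) was used to compare NPCs with all 5 sets of ESCs and, within ESCs, eGFP with the 4 TALE-Vp64 proteins, over all 964 tiles, with Benjamini-Hochberg adjustment at 0.05; the fit was tested on simulated data. For blocks, 2 kb tiles holding 3 or more probes had to reach a log2 ratio of 1 on R1 and on R2, and gaps of up to 1 tile were bridged. Sequences and genes are of mm9 (NCBIM37, GENCODE M1), the build the scan files name.

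In each direction, up to 5 tiles past the threshold were named by size of the NPC difference, given the same sign on R1 and R2 and with adjoining tiles counted once, which left 2 higher and 5 lower; tiles next to them and blocks were described with them. The 3 promoters most correlated with Npas3 and 6 reference promoters were named. The region, lists and tests were chosen with earlier results of these data known. Alternatives were loess with scale normalization, normexp (offset 50, on median signals, as the scan files have no mean signal), the deposited ratios, other centres, filters on dim probes, removal of the GC trend, rescaled NPC values, other tiles and windows, block thresholds of 0.5 and 1.5, arrays as samples, slide as a block, and leaving out arrays or populations. The number of arrays limits the precision.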

Additional observations from a re-analysis of the deposited data

Results flagged for a closer look

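In the tile at 765.3 kb in intron 7, tSBE(6+2)-Vp64 ESCs had a log2 ratio of 0.53, apart from the other 4 ESC populations, the nearest of which had 0.34. The gap was 0.79 of the range of the 5 values. It was the 1 case among 23 levels of the region examined in this way, and chance alone flags about 1 in 20. tSBE(6+2)-Vp64 was the only ESC population on the slide of the NPCs, and the part of the slide in this value was not tested.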

How the results depend on the processing

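The count of 48 lower Npas3 tiles was 110 with the authors' deposited ratios, 6 with arrays centred on the Npas3 probes (chosen after seeing the data), 16 with NPC values rescaled by their slope on the ESC mean, 27 (of 85) with 10 kb tiles, 31 with slide as a block and 29 to 45 when a replicate or an ESC population was left out (29 without eGFP, 30 without tSBE2-Vp64, 30 without replicate 1, 31 without replicate 2). The 3 higher tiles became 11 with arrays centred on Npas3, 1 with probes well above background in Cy3, 9 (of 419) with 2 kb tiles, 1 with 10 kb tiles, and 2 to 4 when samples were left out. With arrays as separate samples, 8 tiles were higher and 77 lower, both with the replicate block and without it. The numbers R1 and R2 did not pair the arrays (correlations of their deviations between conditions -0.25 to 0.43). The TALE-Vp64 comparison gave 0 tiles under every alternative run. The mean difference of the region was -0.26 with the deposited ratios and with centring outside Npas3, and -0.14 after rescaling (-0.21 to -0.18 leaving samples out). That of the start window was -1.01 with loess and scale, -0.57 centred on Npas3, -0.95 rescaled, and -0.95 and -0.99 with windows of 2.5 and 10 kb (-0.80 to -0.71 leaving samples out). None of these differences changed sign; of the tiles beside the named ones, that at 820.3 kb did, to -0.03 with loess. The causes were not tested. Of the 7 named tiles, those at 5.3, 725.3 and 815.3 kb passed throughout; that at 325.3 kb failed under 5 of 21 alternatives, that at 255.3 kb under 2, and those at 55.3 and 765.3 kb under 1 each, centring on Npas3. Signal over background limits the values: only 4305 Npas3 probes in Cy3 and 5419 in Cy5 were well above background and unsaturated on every array. With the Cy5 filter 48 tiles were lower, 34 of them among the original 48. With the Cy3 filter 57 were lower, 38 of them among the original 48.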

Other observations

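The 5′ shoulder in intron 1 differed in extent among the ESC populations. In the 1 kb window at 9.8 kb, arrays R1 and R2 gave 0.20 and 0.30 in eGFP ESCs, 0.92 and 1.08 in tShh-Vp64, 1.83 and 1.94 in tSBE6-Vp64, 0.70 and 0.57 in tSBE2-Vp64, 0.75 and 1.23 in tSBE(6+2)-Vp64, and -0.26 and 0.34 in NPCs. The window was chosen after its values were seen and has 13 probes, and with 1 sample per construct the difference between constructs was not tested.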
